A study of Rattus norvegicus with 6 samples.

Results

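Expression of 10 genes that the tumour suppressor p53 is known to switch on (Cdkn1a, Mdm2, Bax, Phlda3, Ccng1, Sesn2, Gadd45a, Btg2, Bbc3 and Tp53inp1) was followed in Sprague Dawley rats, aged 13 weeks, on 6 one-colour arrays. The genes were given by name, and each was read from its brightest probe among the 15443 named genes of the array. The cultured samples were adipose-derived stem cells (ADSCs, a mesenchymal culture raised out of fat tissue) after 14 days of culture, 1 array without tracer and 1 array labelled with 124I-HIB (hexadecyl-4-124I-iodobenzoate), a lipophilic tracer that carries a positron-emitting radioactive iodine. The myocardial samples were sham-operated myocardium (1 array), infarcted myocardium injected with PBS (1 array) and infarcted myocardium injected with 124I-HIB-labelled ADSCs (2 arrays, called treated here, replicates 1 and 3). All 4 were taken at 21 days, a time that the labels count from the sham operation for infarcted tissue as well. The dose of tracer, the time between labelling and RNA extraction, and whether the treated pair came from separate animals are not given in the sources used here. No myocardium received unlabelled cells, so cells and tracer cannot be told apart in tissue. PBS against sham and the cell comparisons have no replicate check and were not tested, and only the treated pair gives a spread.

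Ionising radiation breaks DNA, and the kinases that sense the breaks stabilise p53, which then binds response elements near its target genes. The targets fall into groups by what their proteins do. Some halt the cell cycle, some feed back on p53 or on survival signals, and some lead to cell death. Several of these genes also answer to other stress signals, among them the transcription factor ATF4 of the integrated stress response.

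Promoter sequences in RefSeq (rat build GRCr8) were at hand for 7 of the 10 genes, and 4 are shown here because they contrast genes that stood apart in labelled cells with Cdkn1a, the best known p53 target. Each run is the 250 bases before the gene's annotated start, read 5′ to 3′ on the gene's strand. Capitals mark a match to the p53 response element, either a half-site of 10 letters or a 20-letter site (half-sites in direct succession) with at most 1 letter off. Cdkn1a lies at chr20:7150682-7150931 (plus strand), Gadd45a at chr4:97486800-97487049 (minus strand), Mdm2 at chr7:55200792-55201041 (minus strand) and Phlda3 at chr13:49744753-49745002 (plus strand).
Cdkn1a: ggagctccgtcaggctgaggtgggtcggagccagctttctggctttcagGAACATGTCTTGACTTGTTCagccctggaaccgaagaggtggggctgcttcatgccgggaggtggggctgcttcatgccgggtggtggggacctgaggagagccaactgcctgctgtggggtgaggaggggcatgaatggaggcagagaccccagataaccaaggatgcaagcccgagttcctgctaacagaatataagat
Gadd45a: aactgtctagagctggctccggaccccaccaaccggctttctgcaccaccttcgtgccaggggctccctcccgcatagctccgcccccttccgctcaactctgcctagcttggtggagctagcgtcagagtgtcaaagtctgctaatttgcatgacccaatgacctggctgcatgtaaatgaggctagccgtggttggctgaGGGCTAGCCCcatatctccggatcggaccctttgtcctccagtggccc
Mdm2: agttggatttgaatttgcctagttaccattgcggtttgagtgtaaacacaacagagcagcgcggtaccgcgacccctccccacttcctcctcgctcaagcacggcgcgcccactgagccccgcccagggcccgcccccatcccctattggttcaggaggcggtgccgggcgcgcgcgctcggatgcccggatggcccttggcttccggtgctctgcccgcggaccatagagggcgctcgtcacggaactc
Phlda3: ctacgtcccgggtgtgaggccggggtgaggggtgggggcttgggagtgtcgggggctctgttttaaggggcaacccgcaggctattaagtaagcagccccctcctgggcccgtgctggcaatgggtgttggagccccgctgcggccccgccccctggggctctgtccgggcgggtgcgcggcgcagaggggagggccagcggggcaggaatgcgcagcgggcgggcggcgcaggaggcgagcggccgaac

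A half-site, searched on both strands, was found in 3 of the 7 promoters (Cdkn1a, Gadd45a and Ccng1), against 6.25% of 12623 rat promoters of the same length. A 20-letter site with at most 1 letter off was found in 2 of the 7, against 0.0555% (7 promoters) of all. This looser search was added after the Cdkn1a sequence had been read. In Cdkn1a the site ran from base -201 to base -182 relative to the start (GAACATGTCTTGACTTGTTC), and in Ccng1 from base -242 to base -223 (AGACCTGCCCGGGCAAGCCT). The Gadd45a half-site was GGGCTAGCCC, from base -48 to base -39. No perfect 20-letter site was found in the 7, against 0.0238% of all promoters. Matches are letters only, and no binding was measured. Bases beyond these 250 were not searched, so a gene without a match here may still have a site elsewhere. The genes with a match (Cdkn1a 0.11, Ccng1 0.05 and Gadd45a -0.55 as labelled minus unlabelled log2 differences) and those without one (Mdm2 0.54, Phlda3 0.67, Btg2 0.46 and Sesn2 -0.52) each held values of both signs.

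All 10 genes were well above background on all 6 arrays, so none was lost to the filter on dim probes. Levels are log2 signals relative to the 75th percentile of the same array, and they are compared between arrays for 1 probe, never between genes. Probe signal depends on the probe, so a gene with a higher level need not have more transcript. Between 64.4% and 69.4% of an array's probes were well above background, and none had a saturated spot. The median SD between repeat spots of 1 probe was 0.07 to 0.12, over probes with at least 8 unflagged spots. Probes of the 10 genes have only 1 or 2 spots each, so this SD does not cover them. On both cell arrays 7 of 7 mesenchymal markers and 0 of 4 leukocyte markers were well above background. Thy1, a defining marker, stood at 0.92 and 0.82 in unlabelled and labelled cells and was not well above background in any myocardial array. The other 6 mesenchymal markers were well above background on every myocardial array, and of these 4 were higher and 2 lower in the cells. Of 8 cardiomyocyte markers, 5 were well above background on both cell arrays, but their mean level was -4.32 and -4.42 there against 6.59 to 6.91 in myocardium, and Myh6, Myl2 and Nppa were not. Markers of other cell types were also read in the unlabelled and labelled cells: 3 of 4 endothelial (mean level -4.00 and -3.87) and 3 of 3 erythroid markers (-5.62 and -5.64) were well above background in both. Of 5 macrophage markers 4 were in unlabelled and 2 in labelled cells (mean level -5.60 and -6.11), and of 3 adipocyte markers 0 and 1 were. The part of these other cell types in the members' values was not tested.

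**Figure D1:**
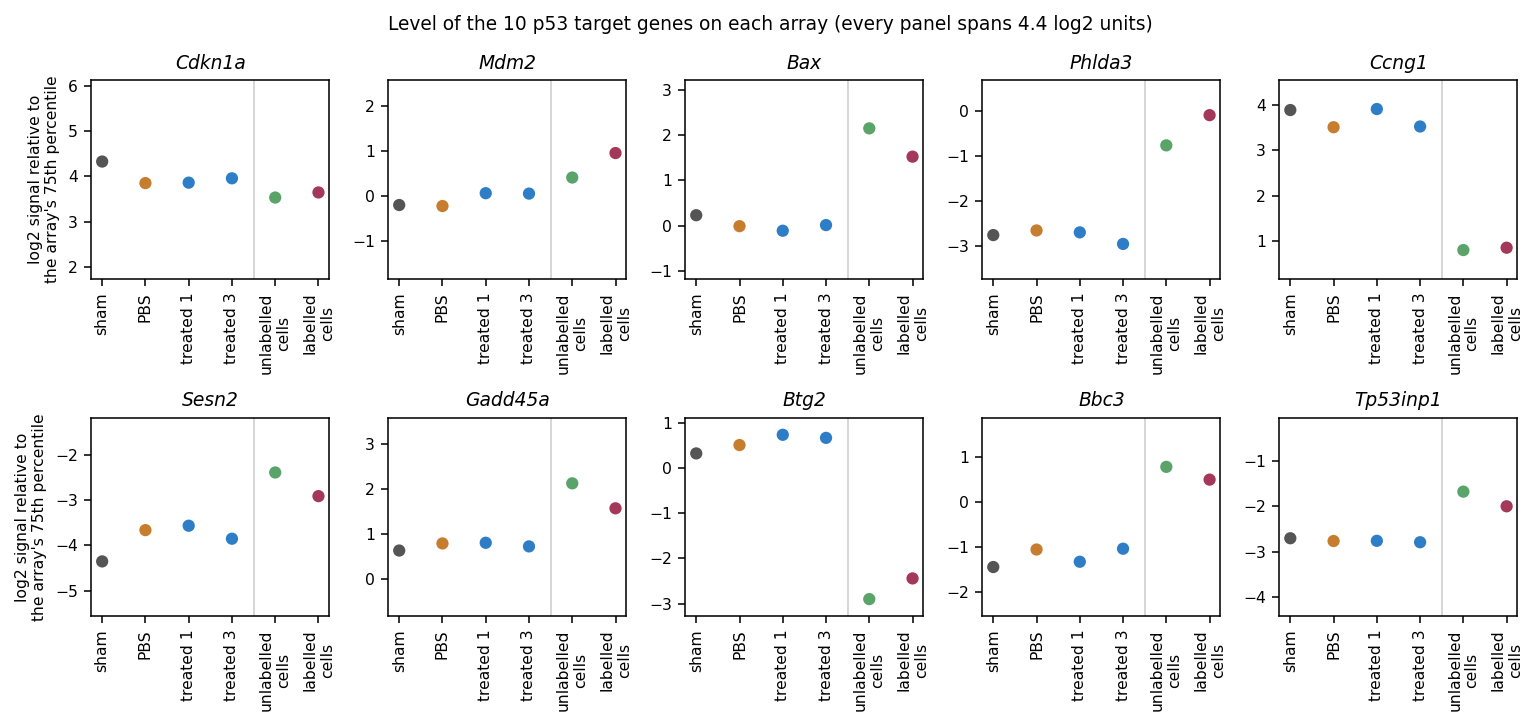
Level of each p53 target gene on each array, as log2 signal relative to the array's 75th percentile, with 1 point for each array and a grey line between myocardium and cells. Bax, Phlda3, Sesn2, Gadd45a and Bbc3 sit higher in both cell arrays, and Ccng1 and Btg2 sit lower, with means at least 2-fold apart. Mdm2 and Tp53inp1 also sit higher and Cdkn1a lower, with means less than 2-fold apart.

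The first comparison asked whether cells that carried the radioactive tracer differed from unlabelled cells. The 10 targets did not share a direction: 5 were higher and 5 were lower in labelled cells, with a median log2 difference of -0.12, where the median over all 18271 features measured on both arrays was -0.04. Phlda3, Mdm2 and Btg2 stood higher by 1.37-fold to 1.59-fold, and Bax, Gadd45a and Sesn2 stood lower by 1.44-fold to 1.54-fold. Cdkn1a and Ccng1 differed by less than 1.1-fold. None of the 10 was 2-fold apart, and 1.04% of all features were. Every one of the 10 signs was kept with another background correction (normexp), with quantile normalization, with median centring, in the authors' table and with the mean of all probes.

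Among the genes that halt the cell cycle, Cdkn1a encodes p21, the inhibitor of cyclin-dependent kinases that carries out much of p53's arrest. It stood at 3.53 in unlabelled and 3.64 in labelled cells, a difference of 0.11, and 64.8% of features lay further from 0. Its repeat spots overlapped, at 3.30 and 3.76 in unlabelled and 3.63 and 3.66 in labelled cells. Btg2, an antiproliferative partner of the mRNA deadenylation complex, stood at -2.90 in unlabelled and -2.44 in labelled cells. Gadd45a, a stress protein linked to arrest and repair, differed in the other direction, at 2.12 and 1.57, and its spots did not overlap between the arrays.

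Of the genes that act back on p53 or on survival signals, Mdm2 encodes the ubiquitin ligase that marks p53 for destruction. It stood at 0.41 in unlabelled and 0.95 in labelled cells, 1.46-fold higher. A second Mdm2 probe gave the same sign, at -1.99 and -1.58, and for neither probe did the repeat spots overlap. Phlda3, a small lipid-binding protein that restrains the kinase Akt, had the largest difference of the 10, at -0.76 in unlabelled and -0.10 in labelled cells (1.59-fold), and 4.43% of features lay further from 0. Its spots ran from -0.81 to -0.72 in unlabelled and from -0.13 to -0.06 in labelled cells. Ccng1, cyclin G1, an atypical cyclin that recruits a phosphatase to Mdm2, stood at 0.79 and 0.84, with overlapping spots. Sesn2, a sestrin that dampens mTORC1 signalling, stood at -2.38 in unlabelled and -2.91 in labelled cells on its single spot.

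Bax, Bbc3 and Tp53inp1, grouped here by their roles in cell death, stood lower in labelled cells, where 43.9% of all features were higher. Bax, which opens the outer mitochondrial membrane, stood at 2.15 in unlabelled and 1.53 in labelled cells (1.54-fold lower), with 5.39% of features further from 0, but the array holds 1 spot for it. Bbc3, the BH3-only activator PUMA, stood at 0.78 and 0.50. Tp53inp1, a stress protein active in autophagy and cell death, stood at -1.67 and -2.00. For Bbc3 and Tp53inp1 the spots did not overlap, and 28.6% and 23.2% of features lay further from 0. In all, 8 of the 10 genes had repeat spots, and in 6 of these the spots of the 2 cell arrays did not overlap, as in 59.7% of the 10959 measured features with repeat spots. Spots that do not overlap were thus common on these arrays. Spots of 1 array share the cell culture, the RNA and the hybridisation, so they measure only the spread within an array. As a second scale, 1.36% of features were 2-fold apart between the treated pair, which received the same treatment. That pair is myocardium, so it does not measure the spread between cell cultures.

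**Figure D2:**
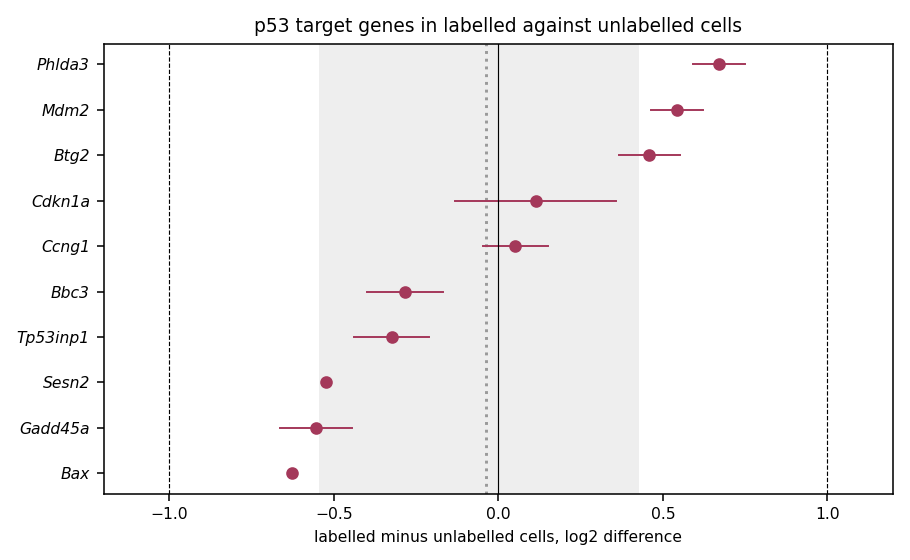
Log2 difference, labelled minus unlabelled cells, for the 10 p53 target genes, with lines that span all pairings of repeat spots (Bax and Sesn2 have 1 spot). The grey band holds the middle of all features (5th to 95th percentile), the dotted line is their median and dashed lines mark 2-fold. Phlda3 (0.67), Mdm2 (0.54) and Btg2 (0.46) lie above the band, Bax (-0.63) and Gadd45a (-0.55) lie below it, and the lines of Cdkn1a and Ccng1 cross 0.

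Further genes of the pathway were read from lists that had been put together with earlier results of these data known. Of 39 other genes reported as p53 targets, 28 were measured on both cell arrays. In labelled cells 16 of them were higher and 12 lower, 0 were 2-fold apart, and the median difference was 0.05. The largest differences were those of Rrm2b (0.78), a ribonucleotide reductase subunit read from a dim probe at -6.21 and -5.43, and Gtse1 (0.74), a microtubule protein of G2 and S phase. Cmbl (-0.56) and the xylulose reductase Dcxr (-0.50) led the lower ones. The 12 measured regulators and partners of p53 split into 4 higher and 8 lower, with a median of -0.07 and none 2-fold apart. The break-sensing kinase Atm stood at -0.41, the p53 brake Mdm4 at -0.36, the checkpoint kinase Chek1 at 0.39 and Cdkn2a at 0.32. Of 17 measured genes of DNA break repair, 10 were higher and 7 lower, with a median of 0.04 and with Fancd2 at 0.60, Lig4 at -0.50, Rad54l at 0.49 and H2ax at 0.41.

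Relatives of the 10 genes also split. Of 17 measured paralogs, 8 were higher and 9 lower, with a median of -0.01. Cdkn1c, the p57 relative of p21, was the lowest at -0.76 (2.02 in unlabelled and 1.26 in labelled cells), Phlda1 was the highest at 0.57, and Tp53inp2 stood at 0.39. Of 12 measured members of the BCL2 family other than Bax and Bbc3, 7 were higher and 5 lower. Its BH3-only genes Bcl2l11 (-0.51) and Bmf (-0.49) were the lowest, while Bok (0.28) and Bak1 (0.26), relatives of Bax, were the highest. Among 9 inhibitors of the cell cycle, 3 were higher and 6 lower, with Rbl2 at -0.33 and Rbl1 at 0.28. None of these relatives was 2-fold apart.

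The list of cell cycle genes that are known to fall when p53 and p21 are active, through the DREAM repressor complex, lay on one side. All 21 measured genes were higher in labelled cells, from 0.17 to 0.92, with a median of 0.56, while 43.9% of all features were above 0. None was 2-fold apart. Cdc6, a licensing factor of DNA replication, stood at 0.92, the mitotic cyclin Ccnb2 at 0.80, the mitotic kinase Aurkb at 0.73 and the centromere histone Cenpa at 0.73. The proliferation marker Mki67 stood at 0.26 in unlabelled and 0.77 in labelled cells. The count stayed at 21 of 21 under all 5 alternatives to the background correction, normalization, centre, source and probe, with medians from 0.50 to 0.59. In the same arrays 13 of 14 ATF4 targets were lower, with a small median of -0.13. Trib3 (-0.78), Phgdh (-0.48), Slc7a11 (-0.45) and Ddit3 (-0.44) were the lowest. The members Sesn2, Gadd45a, Bbc3 and Cdkn1a are also reported as ATF4 targets, and of these the first 3 were lower and Cdkn1a was not. Bax and Tp53inp1, which are not among these, were lower as well. The part of ATF4 in the members' values was not tested. The shares of dividing cells in the 2 cultures were not measured, and their part in these differences was not tested.

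**Figure D3:**
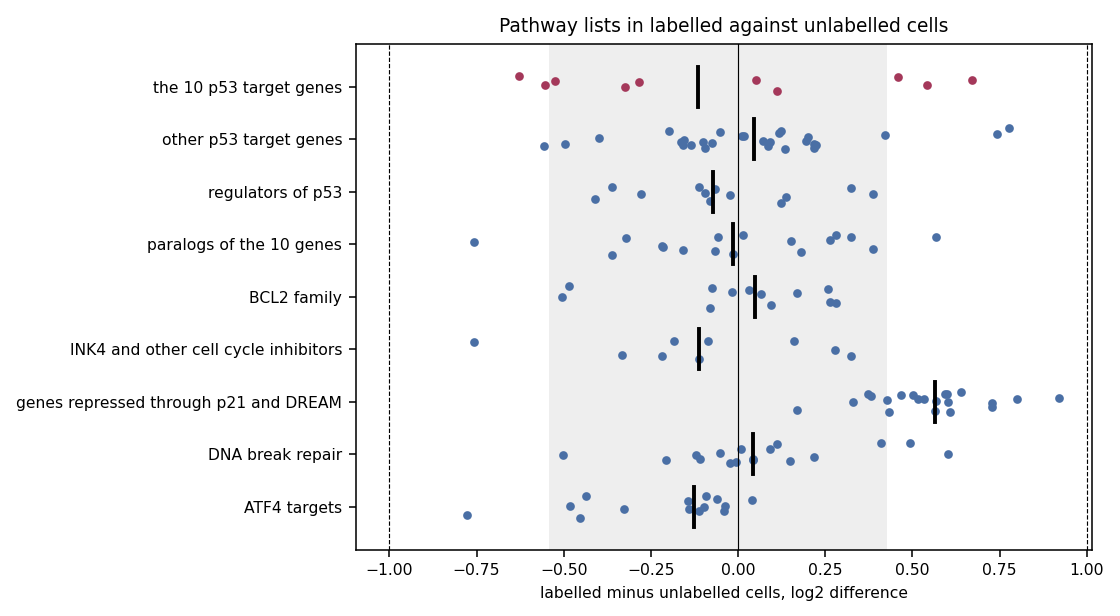
Log2 difference, labelled minus unlabelled cells, for each gene well above background on both cell arrays (points), by list, with each list's median as a black bar, the middle of all features as a grey band (5th to 95th percentile) and dashed lines at 2-fold. The 10 p53 target genes straddle 0, all 21 genes repressed through p21 and DREAM lie to the right of 0, and 13 of 14 ATF4 targets lie to its left.

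The 2 cell arrays were next set against the 4 myocardial arrays, as a description of where the targets were high. For 7 of the 10 genes both cell arrays lay beyond all 4 myocardial arrays with means 2-fold apart, 5 higher and 2 lower. Over all 15886 features measured on the 6 arrays, 41.8% were apart in this way and 19.9% were apart and higher in cells. Btg2 had the largest difference, at -2.90 and -2.44 in the cells against 0.33 to 0.74 in myocardium (9.41-fold lower in cells). Ccng1 stood at 0.79 and 0.84 in the cells against 3.51 to 3.92 in myocardium (7.44-fold lower). Bax and Bbc3 differed in the other direction. Phlda3 was 5.03-fold, Bbc3 3.61-fold and Bax 3.51-fold higher in the cells, and Sesn2 (2.32-fold) and Gadd45a (2.15-fold) followed. Tp53inp1 (1.90-fold) and Mdm2 (1.69-fold) were higher in both cell arrays but under 2-fold. Median centring moved the median of all features from 0.03 to 0.28 in this comparison. Then 9 of the 10 genes passed the same rule, as did 6938 of the 15886 features (6636 without it). Tissue and cultures occupied separate slide rows, so material and row cannot be told apart. In tissue, fewer cells of a type and less RNA per cell cannot be told apart either.

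Cdkn1a gave opposite answers from its 2 probes. The brighter probe, A_64_P123895, stood at 4.33 in sham, 3.85 in PBS, 3.86 and 3.96 in treated, 3.53 in unlabelled and 3.64 in labelled samples, so the cells lay below all 4 myocardial arrays (1.33-fold lower in the means). The dimmer probe, A_44_P914438, stood at 1.35, 1.27, 1.95, 1.34, 3.50 and 3.78 in the same order, so the cells lay above all 4 (4.48-fold higher). Both probes were matched to the same RefSeq transcript, and which of them reports Cdkn1a more faithfully was not tested. In labelled against unlabelled cells they gave the same sign (0.11 and 0.28). The mean of the probes put Cdkn1a 0.88 higher in the cells, where the brighter probe alone put it at -0.41. For Mdm2, the only other member with 2 probes, the difference between cells and myocardium was 0.76 and 0.88.

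**Figure D4:**
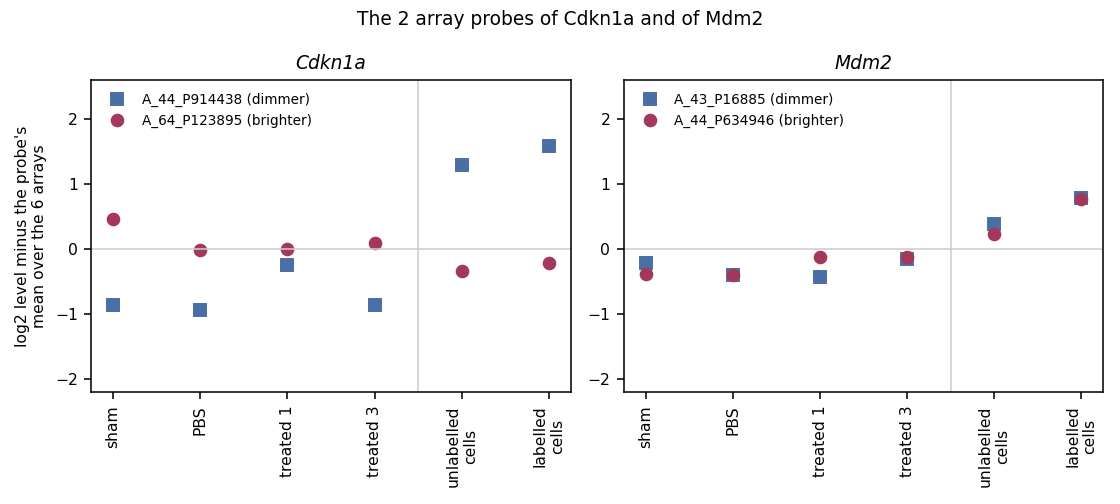
Log2 level of the 2 probes of Cdkn1a and of Mdm2 on each array, minus each probe's own mean over the 6 arrays (circles: brighter probe, squares: dimmer probe, 1 point for each array). The Cdkn1a probes separate cells from myocardium in opposite directions, while the Mdm2 probes keep close to each other except in treated replicate 1.

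By a fixed rule of likeness, genes were ranked by the distance of their centred levels to those of Cdkn1a over the 6 arrays, among 9744 named genes well above background on all of them. The nearest were Mrps26 (distance 0.12), Tardbp (0.13), Elac2 (0.14), Dynlt3 (0.15) and Arel1 (0.16), each highest in sham and lowest in the cells, as the brighter Cdkn1a probe was. The same rule for Phlda3 gave Dlgap5 (0.26), Errfi1 (0.29), B4galt2 (0.31), Tmem39a (0.32) and Homer3 (0.33), all higher in the cells and higher in labelled than in unlabelled ones. These shared patterns follow from the choice by distance over the same arrays.

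Between the PBS-injected infarct and sham, 5 of the 10 genes were higher and 5 lower, and none was 2-fold apart, against 3.67% of 17255 measured features. Sesn2 stood highest against sham, at -4.35 in sham, -3.66 in PBS and -3.56 and -3.85 in the treated arrays, so that all 3 infarcted samples lay above sham. With normexp its PBS minus sham difference was 0.13 and not 0.69, and its processed signal in sham was only 37.8. Bbc3 was 0.39 higher in PBS than in sham, at -1.05 against -1.44. Cdkn1a stood at 4.33 in sham and 3.85 in PBS by its brighter probe, while its dimmer probe differed by -0.08. Ccng1 stood 0.38 log2 units below sham in PBS, at 3.51 against 3.90 (repeat spots at 3.31 and 3.72 against 3.72 and 4.07). Bax stood at 0.23 in sham and -0.01 in PBS. Gadd45a (0.63 in sham and 0.79 in PBS), Btg2 (0.33 and 0.51) and Phlda3 (-2.75 and -2.65) were slightly higher in PBS, although Phlda3 was lower with normexp. Mdm2 differed by -0.02. Tp53inp1 stood between -2.79 and -2.70 on all 4 myocardial arrays. In 4 of the 10 genes (Sesn2, Gadd45a, Btg2 and Bbc3) all 3 infarcted arrays lay above sham, as they did in 24.9% of all measured features. Of 8 cardiomyocyte markers 7 were lower in PBS than in sham (median of the 8 -0.45). The eighth, Nppa, was 3.70 log2 units higher (6.49 against 2.80), and their part in the members' values was not tested.

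The question for the treated pair was whether infarcts that received labelled cells differed from those that received PBS. No member was 2-fold higher or lower in both treated arrays, against 1.26% of 17338 measured features. In limma's fit of the 4 myocardial arrays, 0 of 10 members and 0% of 19603 features were called at an adjusted p under 0.05. Unadjusted, 0 of 10 members and 9.66% of features had a p under 0.05. With a trended robust variance limma called 58 features, and with normexp 82, none of them a member. Mdm2 had the largest difference, at -0.22 in PBS and 0.06 in both treated arrays, 0.28 ± 0.16 higher (limma SE, adjusted p = 0.686). Its 95% interval ran from -0.20 to 0.76, and its second probe put the 2 treated arrays at -0.03 and 0.24 against PBS. Ccng1 stood at 3.92 and 3.53 in the treated arrays against 3.51 in PBS, so 1 replicate lay 0.40 higher and the other beside it. Its repeat spots stood at 3.72 and 4.11 in replicate 1 and at 3.31 and 3.72 in PBS. Btg2 was 0.23 and 0.16 higher, and Phlda3 was 0.04 and 0.30 log2 units lower. By their brightest probes the other 6 members differed from PBS by -0.13 to 0.06 in the mean. The dimmer Cdkn1a probe stood 0.68 (replicate 1) and 0.07 (replicate 3) above PBS, with a mean of 0.38. The first rank of Mdm2 thus holds for the brightest probes only.

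Against sham, no member was 2-fold apart in both treated arrays, as 0.973% of 17052 features were. Limma called 0 of 10 members and 0% of features. Unadjusted, 1 of 10 members and 9.62% of features had a p under 0.05. That member was Sesn2, 0.65 ± 0.21 higher in treated than in sham myocardium (limma SE, adjusted p = 0.519). With normexp its difference was 0.15. Cdkn1a stood 0.42 ± 0.17 log2 units below sham (limma SE, adjusted p = 0.564), and its dimmer probe gave a mean difference of 0.30 in the other direction, from 0.61 in treated replicate 1 and -0.01 in replicate 3. The fit has 1 residual degree of freedom, from the treated pair, and assumes that sham and PBS vary as that pair does. Treated against PBS and PBS against sham share the PBS array, and both comparisons with sham share the sham array.

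**Figure D5:**
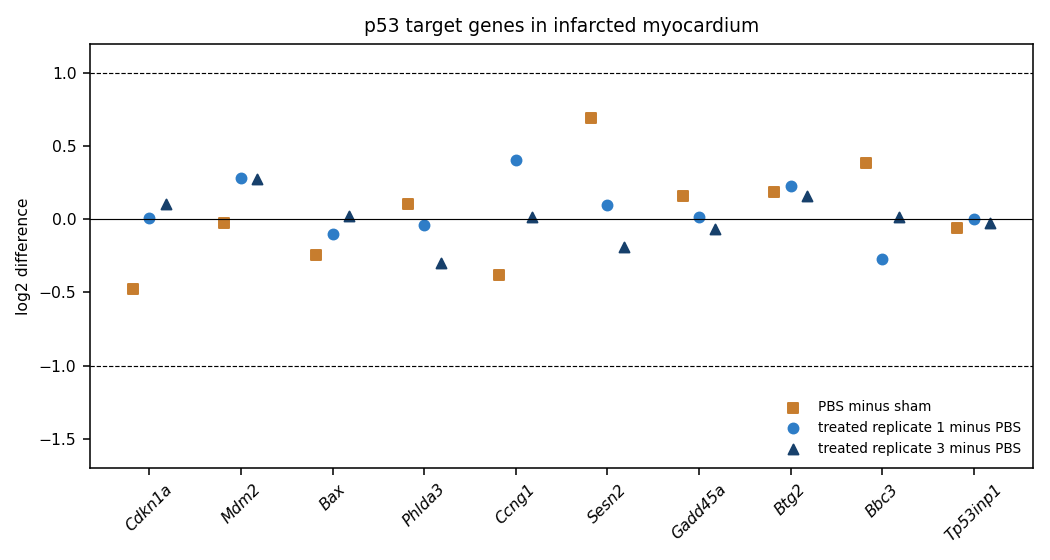
Log2 difference of each p53 target gene in myocardium, as PBS minus sham (squares) and as each treated replicate minus PBS (circles and triangles), 1 array for each group or replicate, with dashed lines at 2-fold. All points lie within 2-fold, Sesn2 has the largest PBS minus sham value (0.69) and the treated replicates lie on both sides of PBS for Bax, Sesn2, Gadd45a, Bbc3 and Tp53inp1.

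The cell cycle list was also read in tissue. Of 18 measured genes repressed through p21 and DREAM, 17 were higher in treated than in PBS myocardium, with a median of 0.68, where 51.6% of all features were above 0. With normexp the median was 0.37. Without it, 3 of the 18 were 2-fold higher in both treated arrays, as were 78 of 17338 measured features. Limma called none of the 20 genes tested. The cyclin Ccna2 stood at -2.99 in sham, -4.53 in PBS and -3.03 and -2.90 in the treated arrays, so PBS was the low array and sham and treated overlapped. Ube2c stood at -3.06 in sham, -4.21 in PBS and -2.96 and -3.12 in treated. In PBS against sham 16 of the 18 were lower, and the median was -0.46. In treated against sham 17 of 19 were higher but with a median of 0.17, and 9 of 19 were higher with normexp. The larger values of the list in tissue therefore rest on comparisons with the 1 PBS array. The erythroid markers were low on the same array, with all 3 of 3 lower than in sham and higher again in treated (from -1.48 to -1.02 against sham, and from 1.03 to 1.49 for treated against PBS), and the adipocyte marker Adipoq was well above background on that array only (-2.66). Their part in the list's values was not tested.

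Single genes of the other lists were chosen by the largest treated minus PBS differences, so their distance from PBS follows from that choice. The p53 target Psrc1, a spindle protein, stood at -4.76 in sham, -2.99 in PBS and -4.79 and -4.03 in the treated arrays. The BH3-only gene Bik stood at -3.84, -2.72, -4.34 and -3.68 in the same order, and Hrk was 0.88 and 1.69 log2 units below PBS. Nupr1 (-1.24) and Ddit4 (0.95) had the largest treated minus PBS differences among ATF4 targets, Phlda1 (0.87) and Tob2 (0.67) among relatives of the members, and Rad50 (0.67) and H2ax (0.35) among break repair genes. Dram1, a p53 target of autophagy, had a mean of 0.33 from treated arrays on both sides of PBS. Limma called none of these genes.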

How the data were processed

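RNA from 6 samples was measured on 1 array each, all on 1 slide and in 1 scan. The authors deposited each array's scanner output, with intensity values of 58717 spots. The submitters' processing notes name Agilent Feature Extraction 11.0.1.1. A second deposited table holds log2 values of unstated making, which tracked the logged scanner signal with a positive r of at least 0.9998 and equal medians in myocardium (8.85) and in cells (9.67); it served as an alternative.

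Log2 processed signal was averaged over a probe's unflagged spots and taken relative to the array's 75th percentile (signals of 772 to 2615). Probes were named through RefSeq accessions (assembly GRCr8, for names; the grid's own header gives an older build): 18355 of 30367 received a symbol. The brightest probe stood for a gene, an unnamed probe for itself (27455 features). A probe counted as measured where at least 50% of its spots were well above background. Bounds for unmeasured probes were not needed. Sizes were counted at 2-fold among features measured on every array compared. Treated against PBS and against sham were tested with limma 3.58.1 in R 4.3.3 (eBayes on lmFit, Benjamini-Hochberg over 19603 features measured on at least 1 myocardial array). Limma's p-values measure only the spread of the treated pair, which may be technical. The fit was also run on simulated arrays given equal spreads, which cannot check whether sham and PBS vary as that pair does. Named genes were all 10 members, up to 4 a list by the labelled minus unlabelled difference and up to 2 by treated minus PBS; Mki67 and the marker genes were named after their values were seen. One gene of the list of regulators is not reported here and was left out of its counts. The 10 members, the lists and the tests were chosen with earlier results of these data known. Normexp (offset 50) used median signals, as no mean signal column was in these files.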

Additional observations from a re-analysis of the deposited data

How the results depend on the processing

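The number of arrays limits the precision of these values. All 50 alternative values of the 10 members in labelled against unlabelled cells kept their sign, as did 49 of 50 in PBS against sham, 53 of 70 in treated against PBS, 68 of 70 in treated against sham and 39 of 40 in cells against myocardium. No member was 2-fold apart or called by limma in any alternative of the first 4 comparisons. At 1.5-fold, 2 of the 10 members were apart in labelled cells (Phlda3 and Bax), beside 1188 of 18271 features. In PBS against sham 1 of the 10 was (Sesn2), beside 2278 of 17255 features. Of all features, 190 were 2-fold apart in labelled cells, against 71 with normexp, 1372 with no filter on dim probes and 1188 at 1.5-fold. For PBS against sham the count of 634 became 240, 2314 and 2278 in the same order. For treated against PBS the 219 became 89, 828 and 846, and 445 to 512 with 1 treated replicate left out. For treated against sham the 166 became 73, 820 and 745, and 377 to 414 with 1 replicate left out. The counts with 1 replicate are larger by construction, since 1 array and not both has to pass. Limma's 0 calls became 82 (normexp) and 58 (trended robust variance) for treated against PBS. For treated against sham they became 50 (normexp), 51 (trended robust variance), 2 (the authors' table) and 3 (features well above background on all 4 arrays). In cells against myocardium the 6636 features (of 15886 measured) became 6034 with normexp, 6938 with median centring and 9807 at 1.5-fold. In the same order 6, 9 and 9 members passed. With no filter, which takes in unmeasured features, 13739 features and 7 members passed. With normexp, 10 (not 16) of the other p53 targets and 9 (not 17) of the genes repressed through p21 and DREAM were above sham in treated myocardium, where it moved the median of all features from -0.04 to -0.13. In PBS against sham that median moved from -0.05 to -0.14 with normexp and with median centring. The cause of these shifts was not tested. No paired analysis was possible because the groups share fewer than 2 replicate numbers.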
